A study of Oryza sativa with 24 samples.

Results

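The calcium-signalling kinases of rice and their calcium sensors were followed in root and shoot of the genotypes Dular and PB1 under phosphate (Pi) deficiency. The set comprised every gene that the rice gene table lists under a CBL, CIPK, CPK or CDPK name with a number, 63 genes in all (9 CBL, 30 CIPK and 24 CPK). A probe set assigned to a single gene was paired with 51 of them (7 CBL, 24 CIPK and 20 CPK), out of 17905 genes that were paired in this way on the whole array. CBL1, CBL7, CIPK3, CIPK9, CIPK13, CIPK15, CIPK27, CIPK33, CPK11, CPK14, CPK25 and CPK28 were not measured here. Seedlings of Dular, a traditional low Pi tolerant genotype, and of PB1, a modern low Pi sensitive genotype, were raised for 15 days on Yoshida medium with 1 µM (−Pi) or 320 µM (+Pi) phosphorus and received no other treatment. The 8 groups were Dular −Pi roots, Dular +Pi roots, PB1 −Pi roots, PB1 +Pi roots, and the 4 matching shoot groups, each with 3 biological replicates on 1 array apiece (24 arrays). Each RNA sample pooled tissue of several seedlings, so that root or shoot values are averages over whole organs and over plants, and a change in the amount of a cell type cannot be told apart from a change of transcript per cell.

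Calcineurin B-like proteins (CBL) are small calcium sensors that bind the ion through EF hands. On binding calcium they dock onto CBL-interacting protein kinases (CIPK), release the autoinhibition of the kinase and bring it to the plasma membrane or the tonoplast, where it phosphorylates ion channels and transporters. Calcium-dependent protein kinases (CPK, also written CDPK) carry sensor and kinase in a single chain. In rice, CIPK23 with CBL1 activates the root potassium channel AKT1, and CIPK24 with CBL4 forms the SOS pathway that drives sodium export under salt.

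All values are log2 values relative to the median of the same probe set over the 24 arrays, so that they give differences between groups and no absolute level. A member was called when its difference passed an adjusted p of 0.05 in limma (Benjamini-Hochberg over 57258 probe sets) and reached 2-fold. Of the 51 members, 11 had several probe sets; the values below come from the first in a fixed order, and a further probe set is given where it goes another way. The names follow the gene table, in which 47 of the 63 genes carry no CBL, CIPK, CPK or CDPK name that another gene also carries.

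The arrays of a group correlated with each other at a mean r of 0.889 to 0.953 in 7 groups, but at 0.695 in PB1 −Pi shoots, where replicate 2 lay farthest from its group mean (root mean square deviation 0.542, against 0.153 to 0.340 on the other 23 arrays). The spiked control BioB was higher in Dular than in PB1 roots by 4.64 (−Pi) and 4.99 (+Pi) on the log2 scale, while the other spiked controls differed by 0.475 or less in size, and its part in the root differences between genotypes was not tested. The organ labels were borne out by the markers: the mean over 4 green tissue genes lay between −3.68 and −1.06 on the 12 root arrays and between 0.67 and 1.77 on the 12 shoot arrays. Pi response genes also followed the labels, with 7, 8, 6 and 7 of 10 measured genes (SPX genes, phosphate transporters and MGD2) called higher at −Pi (Dular roots, PB1 roots, then shoots of Dular and of PB1).

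At −Pi against +Pi members of all 3 families were called in roots, and CIPK and CPK members in shoots. In Dular roots 9 of 51 members were called (17.6%, against 7.56% of all probe sets), 5 higher (4.12% of all probe sets were) and 4 lower (3.44%). In PB1 roots 6 were called (11.8%, against 4.81% of all probe sets), 3 higher (2.55% of all) and 3 lower (2.25%). Dular shoots had 2 calls (3.92%, against 2.34% of all probe sets), 1 higher (1.16% of all) and 1 lower (1.18%). PB1 shoots also had 2 (3.92%, against 1.17% of all probe sets), both higher (0.603% of all). Over the 4 comparisons 12 members were called at least once (23.5%, against 12.1% of all probe sets), comprising 9 of 24 CIPK, 2 of 20 CPK and 1 of 7 CBL genes. The difference between the families was not tested. Of the 51 members, 5 were called in both genotypes' roots in the same direction (1.88% of all probe sets were), namely CIPK6 and CIPK29 (higher) and CIPK10, CIPK17 and CBL9 (lower). The median change over the 51 members was 0.04 in Dular roots, beside −0.01 over all probe sets. The map of changes shows these calls by family.

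**Figure D1:**
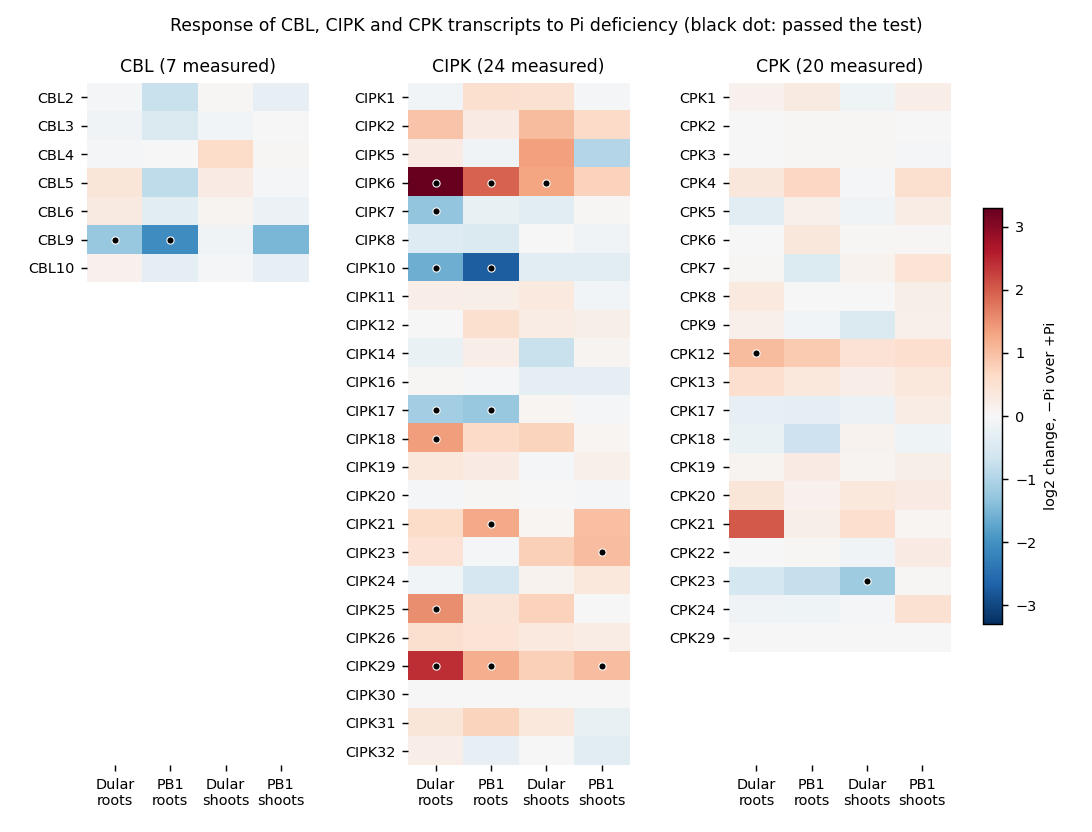
Log2 change at −Pi over +Pi (colour scale) of each measured CBL, CIPK and CPK gene in Dular roots, PB1 roots, Dular shoots and PB1 shoots (columns), with a black dot where the member was called. The columns of Dular and PB1 roots hold 9 and 6 dots and those of Dular and PB1 shoots 2 each, CIPK6 in Dular roots has the largest rise (3.29), and CIPK10 in PB1 roots has the largest fall (−2.72).

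CIPK6 had the largest rise of all members in roots of either genotype; its Arabidopsis namesake works with CBL4 on a potassium channel. It measured −1.12, −1.49 and −1.92 in Dular −Pi roots, against −4.90, −4.82 and −4.67 in Dular +Pi roots. In PB1 it measured 1.53, 1.71 and 1.82 in −Pi roots, against −0.64, −0.12 and −0.06 in +Pi roots. The −Pi arrays lay above the +Pi arrays without overlap in both genotypes, and even the −Pi arrays of Dular stayed below the +Pi arrays of PB1. The rise was 9.76-fold in Dular (log2 3.29 ± 0.26 SE, adjusted p = 4.22e-08), beside 3.88-fold in roots of PB1 (1.96 ± 0.26, adjusted p = 4.56e-05). No alternative processing removed either call.

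CIPK29, a kinase gene that lies next to CIPK2 on chromosome 7, also rose at −Pi in roots of both genotypes, by less than CIPK6. It measured 0.01, −0.21 and −0.23 in Dular −Pi roots, against −2.86, −2.47 and −2.43 in Dular +Pi roots. In PB1 it measured 0.94, 1.07 and 0.88 in −Pi roots, against −0.29, −0.01 and −0.38 in +Pi roots. The groups did not overlap in either genotype, and the rise was 5.42-fold in Dular (2.44 ± 0.21, adjusted p = 1.24e-07), beside 2.28-fold in roots of PB1 (1.19 ± 0.21, adjusted p = 6.58e-04). Its neighbour CIPK2 was not called: its 3 probe sets gave changes of 0.64 to 0.94 in Dular roots, 2 of them with an adjusted p of 0.05 or less but under 2-fold, and 0.01 to 0.28 in PB1 roots.

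Further rises in Dular roots concerned CIPK25, CIPK18 and CPK12, the last a kinase with a known part in salt tolerance and blast sensitivity of rice. CIPK25 measured −2.47, −3.02 and −2.54 in Dular −Pi roots, against −4.14, −4.98 and −3.47 in Dular +Pi roots, a rise of 2.87-fold (1.52 ± 0.30, adjusted p = 1.10e-03). CIPK18 measured 0.49, 0.24 and 0.42, against −0.88, −1.20 and −0.94, a rise of 2.62-fold (1.39 ± 0.20, adjusted p = 6.23e-05). CPK12 measured 0.24, 0.30 and 0.15, against −0.82, −0.80 and −0.84, which was 2.07-fold (1.05 ± 0.19, adjusted p = 4.48e-04). In all 3 genes the −Pi arrays lay above the +Pi arrays. The CPK12 call was lost under quantile normalization (0.87), and the only probe set of CPK12 is of the kind that can bind related transcripts.
In PB1 roots the same genes changed by 0.42 (CIPK25, 95% interval −0.21 to 1.05), 0.64 (CIPK18, 0.21 to 1.07) and 0.86 (CPK12, 0.46 to 1.25), none of them called, and the test of the difference between genotypes did not pass for any of the 3.

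CIPK21 was the only member called higher in PB1 roots and not in Dular roots; the Arabidopsis gene of this name acts in salt and osmotic stress. It measured 1.86, 2.04 and 1.64 in PB1 −Pi roots, against 1.34, 0.25 and 0.18 in PB1 +Pi roots, so that replicate 1 at +Pi approached the −Pi arrays. The rise was 2.39-fold (1.26 ± 0.40) with an adjusted p of 0.0438, close to the threshold. In Dular roots it measured 1.31, 0.35 and 0.38 at −Pi, against 0.02, 0.08 and 0.13 at +Pi, a change of 0.60 that was not called. The limma test of the difference between genotypes did not pass (−0.65 ± 0.57, adjusted p = 0.405). The call in PB1 roots was lost under 17 of 34 alternatives, with changes of 0.98 to 1.63, among them the leaving out of any PB1 −Pi root array (1.25, 1.16 and 1.36 without replicates 1, 2 and 3) and of PB1 +Pi root replicate 2 (1.08) or 3 (1.05).

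CIPK12, the neighbour of CIPK30 on chromosome 1, depended on the probe set. Its first probe set was flat in Dular roots (change 0.00), with all 6 arrays between 0.00 and 0.01 in size. On the second it measured 1.42, 0.91 and 1.14 in Dular −Pi roots, against −2.11, −1.91 and −1.40 in Dular +Pi roots, a rise of 7.79-fold (2.96 ± 0.48, adjusted p = 1.86e-04). The same probe set gave 1.14 in PB1 roots and, in shoots, 1.23 in Dular and 1.46 in PB1, none of them called. On it the limma tests of the difference between genotypes in roots (1.82 ± 0.68, adjusted p = 0.0909) and between organs in Dular (1.74 ± 0.68, adjusted p = 0.109) did not pass. The first probe set gave 0.52 in PB1 roots, not called.

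CPK21, a kinase linked to salt tolerance in rice, had a change of 2.01 in Dular roots that was not called (adjusted p = 0.215). It measured 5.87, 0.21 and 0.11 in Dular −Pi roots, against 0.02, −0.01 and 0.13 in Dular +Pi roots. The mean therefore rested on replicate 1, and the groups overlapped.

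**Figure D2:**
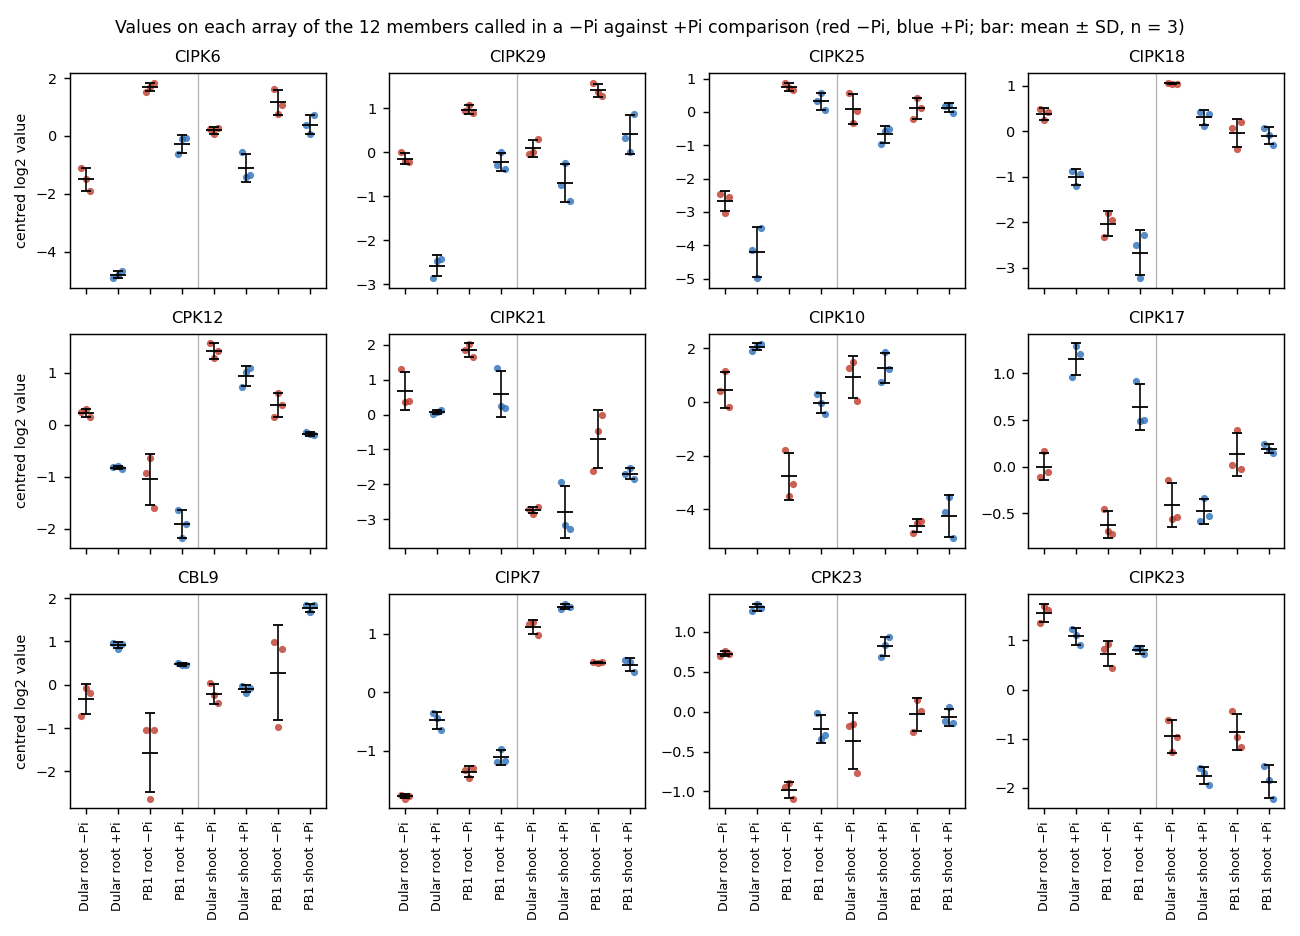
Centred log2 value on each array (points; −Pi red, +Pi blue) with the mean and SD (n = 3) of the 12 members called in at least 1 comparison of −Pi with +Pi, in 8 groups, roots left of the grey line and shoots right of it. CIPK6 and CIPK29 are higher at −Pi in both genotypes' roots, CIPK10, CIPK17 and CBL9 are lower, and CIPK10 sits at −3.54 and below in every PB1 shoot array.

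CIPK10 had the largest fall. It measured 0.40, 1.15 and −0.20 in Dular −Pi roots, against 1.91, 2.09 and 2.17 in Dular +Pi roots. In PB1 it measured −1.79, −3.50 and −3.04 in −Pi roots, against 0.30, −0.02 and −0.44 in +Pi roots. All −Pi arrays lay below the +Pi arrays of their genotype. Transcripts fell 3.05-fold in Dular (−1.61 ± 0.49, adjusted p = 0.0275) and 6.60-fold in PB1 roots (−2.72 ± 0.49, adjusted p = 7.75e-04). The test of the difference between genotypes passed on 2 of its other probe sets (1.43 ± 0.37 and 1.85 ± 0.38), though not on the first. All 4 probe sets of the gene gave a fall with an adjusted p of 0.05 or less in both genotypes, −1.61 to −0.93 in Dular and −2.95 to −2.22 in PB1 roots. On the first probe set the call in Dular roots was lost without any Dular +Pi root array (−1.68, −1.59 and −1.55 without replicates 1, 2 and 3) and without Dular −Pi root replicate 1 (−1.59) or 3 (−1.28).

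CIPK17 fell by a like amount in both genotypes. It measured −0.11, 0.16 and −0.05 in Dular −Pi roots, against 0.97, 1.29 and 1.21 in Dular +Pi roots, and −0.45, −0.69 and −0.72 in PB1 −Pi roots, against 0.92, 0.50 and 0.50 in PB1 +Pi roots. The groups were apart in each genotype. The fall was 2.23-fold in Dular (−1.16 ± 0.14, adjusted p = 1.06e-05) and 2.39-fold in PB1 roots (−1.26 ± 0.14, adjusted p = 1.02e-05).

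CBL9 was the only calcium sensor of the CBL family that was called. It measured −0.72, −0.09 and −0.18 in Dular −Pi roots, against 0.97, 0.84 and 0.94 in Dular +Pi roots, and −1.05, −2.63 and −1.04 in PB1 −Pi roots, against 0.51, 0.45 and 0.45 in PB1 +Pi roots. The −Pi values were more scattered than the +Pi values but lay below them without overlap. The fall was 2.37-fold in Dular (−1.25 ± 0.42, adjusted p = 0.0479) and 4.12-fold in PB1 roots (−2.04 ± 0.42, adjusted p = 2.35e-03). Its probe sets are of the kind that can bind related transcripts, and the second gave −0.92 in Dular and −0.88 in PB1 roots (adjusted p = 0.0140 and 0.0229), just under 2-fold. The call in Dular roots was lost under 22 of 34 alternatives, among them the leaving out of any array of that comparison (changes of −1.05 to −1.37), and its direction was kept.

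CIPK7 gave opposite results on its 2 probe sets. On the first it measured −1.75, −1.81 and −1.77 in Dular −Pi roots, against −0.35, −0.44 and −0.64 in Dular +Pi roots, a fall of 2.46-fold (−1.30 ± 0.08, adjusted p = 1.24e-09). On the second it measured −1.42, −1.19 and −1.01, against −3.49, −3.19 and −3.79, a rise of 4.87-fold (2.28 ± 0.17, adjusted p = 1.89e-08). In PB1 roots the changes were −0.25 and 0.57, again opposite and neither called. The gene record also carries the names TATA and THA4, which belong to a thylakoid protein transport component, and which transcript each probe set reads was not tested. The direction of CIPK7 is therefore not settled here. The fall on the first probe set was also lost under quantile normalization.

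In shoots the responses were fewer and smaller. Calls over all probe sets were also fewer in shoots (2.34% in Dular and 1.17% in PB1) than in roots (7.56% and 4.81%). CIPK6 measured 0.25, 0.06 and 0.26 in Dular −Pi shoots, against −0.55, −1.44 and −1.36 in Dular +Pi shoots, a rise of 2.47-fold (1.31 ± 0.26, adjusted p = 3.98e-03). It was not called in PB1 shoots, but the limma test of the difference between genotypes in shoots did not pass (0.54 ± 0.37, adjusted p = 0.65). CPK23, listed also as spk, a kinase described in developing rice seed, measured −0.18, −0.16 and −0.78 in Dular −Pi shoots, against 0.69, 0.83 and 0.93 in Dular +Pi shoots, a fall of 2.27-fold (−1.19 ± 0.14, adjusted p = 3.43e-05). Neither pair of groups overlapped. Without Dular −Pi shoot replicate 3 the fall of CPK23 was just under 2-fold (−0.98) and the count in Dular shoots was 1; without PB1 −Pi shoot replicate 2 it was 3.

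The 2 rises in PB1 shoots stood at the 2-fold limit. CIPK23, the activator of AKT1, measured −0.45, −0.97 and −1.17 in PB1 −Pi shoots, against −1.55, −1.84 and −2.22 in PB1 +Pi shoots (1.01 ± 0.20, adjusted p = 7.09e-03). CIPK29 measured 1.57, 1.37 and 1.28 in PB1 −Pi shoots, against 0.33, 0.01 and 0.86 in PB1 +Pi shoots (1.01 ± 0.21, adjusted p = 8.56e-03). Both were apart on the arrays, but with each array centred on its median neither reached 2-fold, and with the fit restricted to the 12 shoot arrays neither passed (adjusted p = 0.0879 for CIPK23 and 0.104 for CIPK29). Single arrays also decided them: CIPK23 was not called without PB1 +Pi shoot replicate 3 (0.83) or PB1 −Pi shoot replicate 1 (0.80), nor CIPK29 without PB1 +Pi shoot replicate 1 (0.97) or 2 (0.81) or PB1 −Pi shoot replicate 1 (0.93). A further probe set of CIPK23 gave −0.10 in PB1 shoots.
In Dular shoots CIPK23 changed by 0.79 (95% interval 0.36 to 1.23, adjusted p = 0.0221) and CIPK29 also by 0.79 (0.35 to 1.23, adjusted p = 0.0266), both under 2-fold.

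Whether the genotypes responded differently was tested directly, as the change in Dular minus the change in PB1, with the adjusted p alone as the threshold. In roots 10 of 51 members passed (19.6%, against 11.7% of all probe sets), 7 with the larger value in Dular (6.45% of all probe sets) and 3 with the larger value in PB1 (5.24%). They included 4 of 7 CBL, 4 of 24 CIPK and 2 of 20 CPK genes. In shoots 3 passed (5.88%, against 3.27% of all probe sets), 1 with the larger value in Dular (2.06% of all) and 2 with the larger value in PB1 (1.22%), and none did when the fit was restricted to the 12 shoot arrays.

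The calcium sensors CBL2, CBL3, CBL5 and CBL6 differed in the same sense. In Dular roots their changes lay between −0.10 and 0.40, whereas in PB1 roots all 4 were lower at −Pi. Arabidopsis CBL2 and CBL3 sit on the tonoplast. CBL2 measured 0.11, 0.25 and 0.20 in Dular −Pi roots, against 0.25, 0.22 and 0.22 in Dular +Pi roots, and 0.41, 0.12 and 0.38 in PB1 −Pi roots, against 1.15, 1.05 and 0.87 in PB1 +Pi roots. CBL5 measured 2.40, 2.73 and 2.62 in Dular −Pi roots, against 2.01, 2.50 and 2.03 in Dular +Pi roots, and 1.89, 2.01 and 1.42 in PB1 −Pi roots, against 2.69, 2.68 and 2.43 in PB1 +Pi roots. In PB1 the −Pi arrays lay below the +Pi arrays for both genes, while in Dular the groups overlapped. The change in PB1 roots was −0.72 for CBL2, −0.47 for CBL3, −0.83 for CBL5 and −0.38 for CBL6, each with an adjusted p of at most 0.05 and each under 2-fold.
The differences between genotypes were 0.68 ± 0.16 for CBL2 (adjusted p = 9.38e-03), 0.37 ± 0.09 for CBL3 (0.0138), 1.23 ± 0.27 for CBL5 (5.48e-03) and 0.68 ± 0.10 for CBL6 (1.20e-04). Together with CBL9, 5 of 7 CBL genes were lower at −Pi in PB1 roots at an adjusted p of 0.05 and any fold, and none was higher. At that rule 9.82% of all probe sets were lower and 5.57% higher there. In Dular roots 1 CBL gene was lower (CBL9; 9.54% of all probe sets were) and 1 higher (CBL6, by 0.30 ± 0.07; 8.75% of all). CBL10, a sensor of the salt pathway in Arabidopsis shoots, changed by 0.15 in Dular roots (95% interval −0.11 to 0.41) and by −0.32 in PB1 roots (−0.57 to −0.06), and neither passed.

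**Figure D3:**
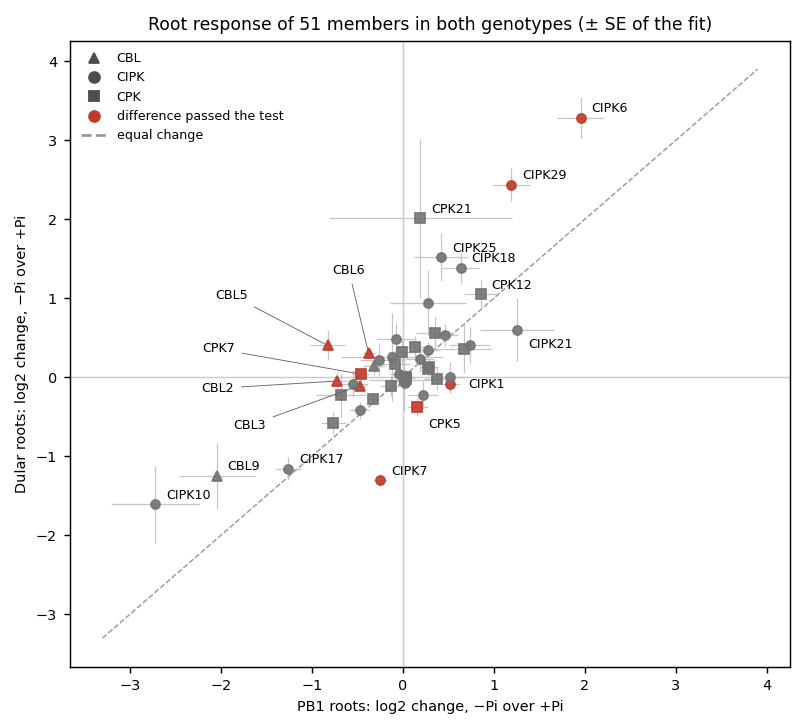
Log2 change at −Pi over +Pi in PB1 roots (horizontal) and Dular roots (vertical) of the 51 measured members, with the SE of the fit as bars, family by symbol and the dashed line at equal change. Members whose difference between genotypes passed the test are red: CIPK6 and CIPK29 lie above the line at the upper right, CBL2, CBL3, CBL5, CBL6 and CPK7 lie above it at the left, and CIPK7, CPK5 and CIPK1 lie below it.

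Among the kinases, the root rise was larger in Dular for CIPK6 by 1.33 ± 0.37 (adjusted p = 0.0252) and for CIPK29 by 1.25 ± 0.30 (adjusted p = 0.0101). CPK7 differed by 0.50 ± 0.13 (adjusted p = 0.0178). The larger value was in PB1 for CIPK7 on its first probe set (−1.06 ± 0.11, adjusted p = 4.63e-06; 1.72 ± 0.24 on its second), for CIPK1 (−0.61 ± 0.14, adjusted p = 0.0101) and for CPK5 (−0.53 ± 0.16, adjusted p = 0.0379). The only probe set of CPK5 is of the kind that can bind related transcripts. Only CBL5, CIPK6, CIPK29 and CIPK7 exceeded 2-fold.
Quantile normalization ended the calls of CIPK6 (1.00), CIPK29 (0.84), CPK5 and CPK7, and left 6 of 10. CIPK6 was also lost without Dular −Pi root replicate 1 (1.13), Dular +Pi root replicate 1 (1.28), PB1 −Pi root replicate 1 (1.25) or PB1 +Pi root replicate 2 (1.25) or 3 (1.23), CPK7 without Dular −Pi root replicate 2 (0.44), and CPK5 under 12 of 33 alternatives (−0.63 to −0.40), 8 of them the leaving out of a root array.
The count in shoots was 1 without Dular −Pi shoot replicate 3 or PB1 +Pi shoot replicate 1, and 8 without PB1 −Pi shoot replicate 1. In shoots the differences were 0.57 ± 0.14 for CIPK1 (adjusted p = 0.0386), −0.44 ± 0.10 for CPK17 (0.0181) and −1.22 ± 0.19 for CPK23 (2.04e-03). CPK23 measured −0.26, 0.14 and 0.01 in PB1 −Pi shoots, against −0.12, 0.05 and −0.15 in PB1 +Pi shoots, groups that overlapped. CPK17 was lost without Dular −Pi shoot replicate 3 (−0.39) or PB1 +Pi shoot replicate 1 (−0.42), and CIPK1 under 13 of 33 alternatives (0.49 to 0.76).

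The root and shoot responses of a genotype were compared in the same way. In Dular 5 members passed (9.80%, against 8.59% of all probe sets), 2 with the higher change in roots (3.77% of all) and 3 with the lower (4.83%). CIPK6 (1.98 ± 0.37, adjusted p = 1.78e-03) and CIPK29 (1.65 ± 0.30, adjusted p = 1.40e-03) had the higher change in roots, and CIPK17 (−1.22 ± 0.20), CIPK7 on its first probe set (−0.95 ± 0.11; 1.97 ± 0.24 on its second) and CIPK1 (−0.58 ± 0.14) had the lower change in roots. In PB1 9 members passed (17.6%, against 5.23% of all probe sets), CIPK1 with the higher change in roots (1.63% of all) and 8 with the lower one (3.60%).
The 8 were CIPK17 (−1.20 ± 0.20), CIPK23 (−1.08 ± 0.29), CPK7 (−0.91 ± 0.13), CIPK24 (−0.90 ± 0.24), CPK23 (−0.80 ± 0.19), CPK24 (−0.64 ± 0.17), CPK17 (−0.57 ± 0.10) and CBL3 (−0.49 ± 0.09). CIPK23 passed only on its first probe set, and its second gave −0.10 ± 0.09 (adjusted p = 0.804). CPK24 has been tied to cold tolerance in rice. Of 33 alternatives, 20 ended the call of CPK24 (range −0.80 to −0.48), 11 that of CIPK23 (−1.52 to −0.10), 11 that of CIPK24 (−1.05 to −0.66), 8 that of CIPK1 (0.51 to 0.73) and 6 that of CPK23 (−0.92 to −0.62); for all of these but CPK24, most were the leaving out of a PB1 array. The count in PB1 was 5 without PB1 +Pi root replicate 1, PB1 −Pi root replicate 3 or PB1 +Pi shoot replicate 3. CIPK10 did not pass in PB1 on its first probe set (−2.34 ± 0.69, adjusted p = 0.0621), while its other 3 probe sets passed (−2.22 to −1.95, adjusted p of 0.00186 to 0.0108). CIPK17 passed with the lower root change in both genotypes (0.812% of all probe sets did), with changes of 0.07 in Dular and −0.06 in PB1 shoots.

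The genotypes differed in the level of many members, whatever the Pi supply. Dular against PB1, 16 of 51 members were called in −Pi roots (31.4%, against 14.3% of all probe sets), 14 in +Pi roots (27.5%, against 13.2%), 12 in −Pi shoots (23.5%, against 11.4%) and 11 in +Pi shoots (21.6%, against 10.3%). In −Pi roots 5 were higher in Dular (6.67% of all probe sets) and 11 lower (7.60%), and in +Pi roots 4 were higher (5.50%) and 10 lower (7.69%). In −Pi shoots 5 were higher (5.90%) and 7 lower (5.49%), and in +Pi shoots 2 were higher (4.91%) and 9 lower (5.35%). Over the 4 comparisons 21 of 51 members were called at least once (24.3% of all probe sets were). Of the 51, 2 were higher in Dular in all 4, CIPK10 and CPK12 (1.5% of all probe sets were). Lower in all 4 were 5 of the 51, CIPK19, CIPK29, CPK4, CPK13 and CPK20 (2.31% of all probe sets). CBL9 was called in both directions, higher in Dular −Pi roots (1.24, but 0.01 on its second probe set and 0.72 without PB1 −Pi root replicate 2, neither called) and lower in Dular +Pi shoots. Single arrays also took members out of these lists: CPK12 was just under 2-fold without PB1 +Pi root replicate 2 (0.95), Dular −Pi shoot replicate 1 (0.97) or PB1 −Pi shoot replicate 1 (0.93), CIPK19 without Dular −Pi root replicate 3 (−0.98), and CIPK29 without Dular +Pi shoot replicate 3 (−0.90) or PB1 +Pi shoot replicate 3 (−0.87). A difference in transcript level cannot be told apart here from a difference between the genotypes in the sequence under the probes.

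CIPK10 was the most different member. It measured 1.26, 1.48 and 0.02 in Dular −Pi shoots, against −4.90, −4.52 and −4.46 in PB1 −Pi shoots, and 0.73, 1.86 and 1.21 in Dular +Pi shoots, against −4.10, −3.54 and −5.08 in PB1 +Pi shoots. No PB1 shoot array came near any Dular array. The difference was 46.7-fold at −Pi (5.55 ± 0.49, adjusted p = 1.07e-07) and 45.5-fold at +Pi (5.51 ± 0.49, adjusted p = 1.57e-07), and 3.82 to 4.87 on its other 3 probe sets. In roots it was 3.23 ± 0.49 at −Pi and 2.11 ± 0.49 at +Pi.
CIPK18 was higher in Dular roots by 2.41 ± 0.20 at −Pi and 1.66 ± 0.20 at +Pi, and in Dular −Pi shoots by 1.09 ± 0.20, a call that was lost without PB1 −Pi shoot replicate 2 (0.91). CPK23 was higher in Dular roots by 1.70 ± 0.14 at −Pi and 1.52 ± 0.14 at +Pi. CPK12 was higher in Dular by 1.04 to 1.28 in the 4 comparisons. In −Pi shoots CIPK1 was also higher in Dular, 2.14-fold (adjusted p = 2.08e-07), and so was CIPK5, by 1.65 ± 0.56 (adjusted p = 0.0381). The CIPK5 difference was 0.62 without PB1 −Pi shoot replicate 2, 1.46 without Dular −Pi shoot replicate 1 and 1.64 without Dular −Pi shoot replicate 3, in each case not called.

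CIPK25 and CIPK6 were the most reduced in Dular roots. CIPK25 lay at −2.47 or lower on all 6 Dular root arrays, against 0.07 or higher on all 6 PB1 root arrays. Its difference was −3.42 ± 0.30 at −Pi and −4.52 ± 0.30 at +Pi (22.9-fold), and it was not called in shoots. CIPK6 differed by −3.19 ± 0.26 at −Pi and −4.52 ± 0.26 at +Pi (23.0-fold) in roots, and by −1.50 ± 0.26 in +Pi shoots. In −Pi shoots its difference of −0.96 was not called.

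CPK4, whose overexpression protects rice from salt and drought, was lower in Dular in both organs. It measured −0.60, −1.58 and −1.74 in Dular −Pi roots, against 1.96, 1.81 and 1.68 in PB1 −Pi roots, and −1.57, −1.66 and −1.78 in Dular +Pi roots, against 1.47, 1.13 and 0.82 in PB1 +Pi roots. In shoots it measured −1.65, −1.41 and −0.62 in Dular at −Pi, against 0.87, 1.80 and 1.19 in PB1, and −0.77, −1.27 and −1.50 in Dular at +Pi, against 0.64, 0.60 and 1.03 in PB1. All 12 Dular arrays lay below all 12 PB1 arrays, and the means differed by 8.69-fold and 7.02-fold in −Pi and +Pi roots and 5.70-fold and 3.83-fold in −Pi and +Pi shoots.
CPK13, also known as OsCDPK7 and active in cold and salt tolerance, differed by −1.80 to −1.45 in the 4 comparisons. The range was −1.92 to −1.05 for CIPK19, −2.36 to −1.10 for CIPK29 and −1.85 to −1.15 for CPK20, which is named here after its values were seen. CIPK26 was called only in roots, −2.13 ± 0.14 at −Pi and −2.20 ± 0.14 at +Pi.
CIPK21 was lower in Dular −Pi shoots (−2.04 ± 0.40), and CPK9, linked to drought tolerance in rice, was lower in Dular shoots at −Pi (−1.82 ± 0.16) and +Pi (−1.16 ± 0.16). CBL9 was lower in Dular +Pi shoots (−1.87 ± 0.42, and −1.71 on its second probe set).

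**Figure D4:**
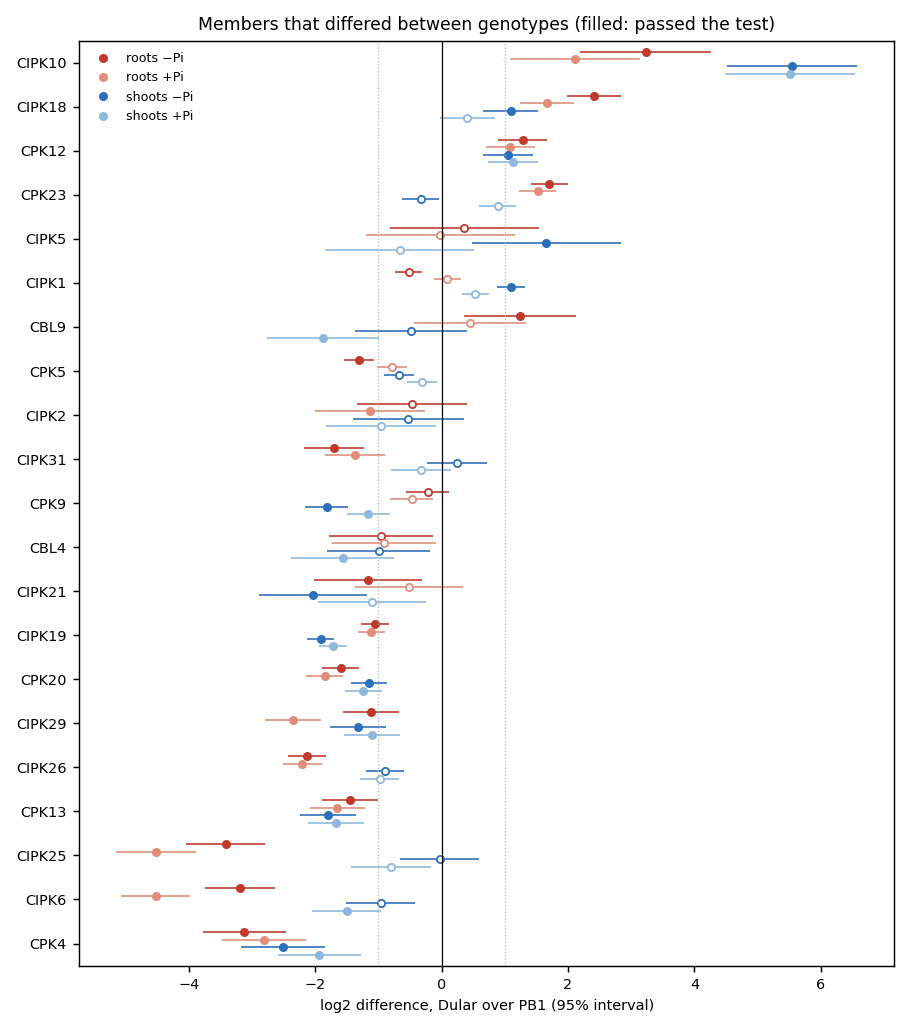
Log2 difference, Dular over PB1, of the 21 members called in at least 1 comparison of the genotypes, in −Pi and +Pi roots (red, pale red) and −Pi and +Pi shoots (blue, pale blue), with the 95% interval of the fit, filled points for calls and dotted lines at 2-fold. CIPK10 stands at the top with shoot differences of 5.55 and 5.51, and CPK4, CIPK6 and CIPK25 stand at the bottom.

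Some members differed between root and shoot in both genotypes and at both Pi supplies. Roots against shoots, 12 members were called in Dular at −Pi (23.5%, against 16.8% of all probe sets), 18 in Dular at +Pi (35.3%, against 16.2%), 13 in PB1 at −Pi (25.5%, against 17.3%) and 15 in PB1 at +Pi (29.4%, against 16.1%). Those higher in roots numbered 5 (8.45% of all probe sets) and 7 (7.35%) in Dular and 6 (9.12%) and 8 (8.26%) in PB1, at −Pi and +Pi. Those lower in roots numbered 7 (8.31%) and 11 (8.84%) in Dular and 7 (8.20%) and 7 (7.82%) in PB1. In total 22 of 51 members were called at least once (26.9% of all probe sets were). Of the 51, 4 were higher in roots in all 4 comparisons, CBL5, CIPK21, CIPK23 and CPK18 (3.59% of all probe sets were). Lower in roots in all 4 were 4 of the 51, CIPK5, CIPK7, CIPK31 and CPK12 (4.74% of all probe sets).

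CBL5 was the most root-enriched member. It measured between 1.42 and 2.73 on the 12 root arrays, against −2.70 and −1.42 on the 12 shoot arrays, and was higher in roots by 4.63 ± 0.19 in Dular at −Pi, 4.49 in Dular at +Pi, 3.56 in PB1 at −Pi and 4.35 in PB1 at +Pi. CIPK21 was higher in roots by 2.28 to 3.42 and CPK18, which phosphorylates a defence MAP kinase in rice, by 1.64 to 2.41. CIPK23 was higher in roots by 1.59 to 2.83 on its first probe set, the organ in which its target channel works, whereas its second gave −0.38 to 0.02.
CIPK10 was higher in roots of PB1, by 1.85 ± 0.49 at −Pi and 4.19 ± 0.49 at +Pi. In Dular its differences of −0.47 and 0.79 were not called, although 1 of its other 3 probe sets was called in Dular at +Pi (1.09). The difference between genotypes in this contrast was not tested.

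CIPK5 was the most shoot-enriched member. It lay between −2.75 and −1.62 on the 12 root arrays, against 3.67 to 5.73 in Dular shoots and 1.62 to 4.80 in PB1 shoots. The 1.62 belongs to PB1 −Pi shoot replicate 2. The differences were −7.63 ± 0.56 and −6.55 in Dular and −6.33 and −7.19 in PB1 (at −Pi and +Pi in each), the largest of the set.
CIPK31 was lower in roots (−3.83 to −1.82), and so was CPK12 (−1.77 to −1.19). CIPK7 was lower in roots on its first probe set (−2.89 to −1.58), while in PB1 its second was higher in roots by 0.57 at −Pi and 0.40 at +Pi. CIPK25 (−2.75 ± 0.30 at −Pi and −3.52 ± 0.30 at +Pi) and CIPK6 (−1.70 ± 0.26 and −3.68 ± 0.26) were called lower in roots at −Pi and +Pi in Dular and not in PB1, a difference that was not tested. CIPK18 (−1.99 and −2.56 in PB1 at −Pi and +Pi) and CPK9 (−2.11 and −1.84) were lower in roots in PB1, and both were also called in Dular at +Pi (−1.31 and −1.16).

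**Figure D5:**
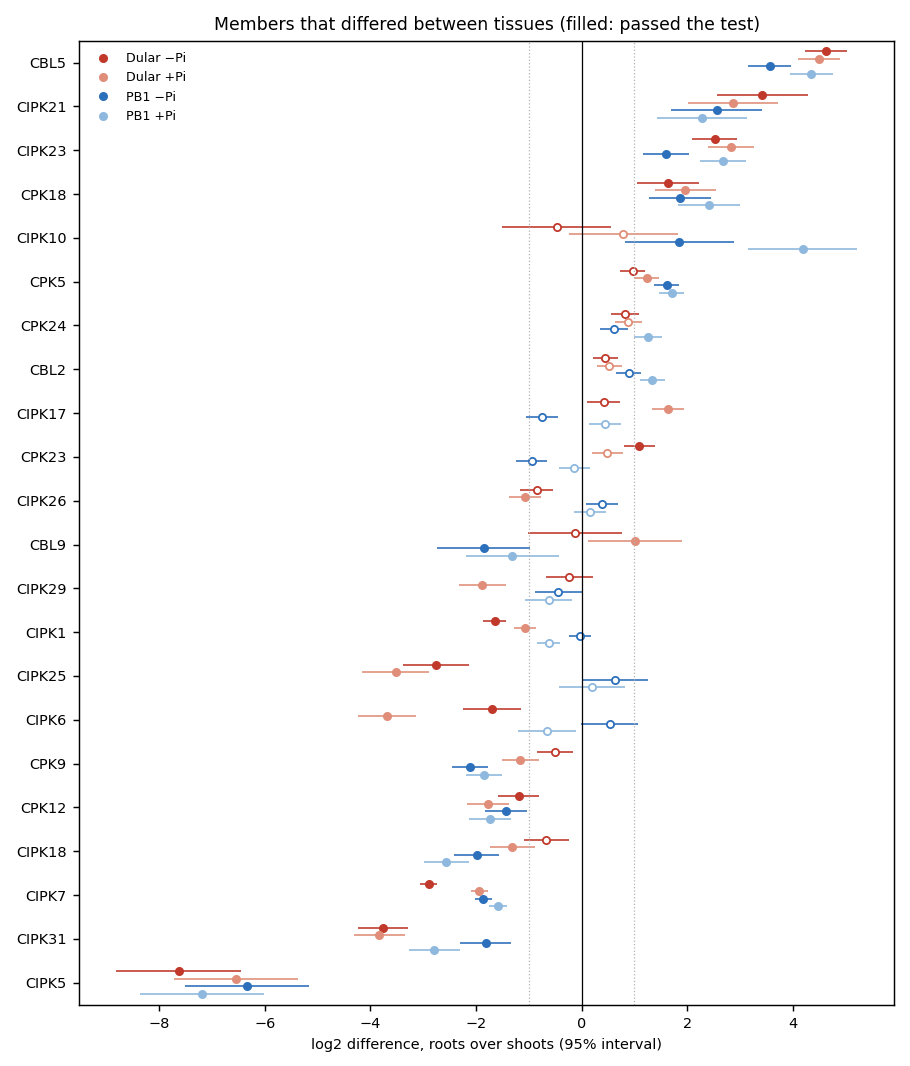
Log2 difference, roots over shoots, of the 22 members called in at least 1 comparison of the organs, in Dular at −Pi and +Pi (red, pale red) and PB1 at −Pi and +Pi (blue, pale blue), with the 95% interval of the fit, filled points for calls and dotted lines at 2-fold. CBL5 stands at the top with 3.56 to 4.63 and CIPK5 at the bottom with −7.63 to −6.33.

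Of the members with textbook roles, CIPK24 and CBL4 of the salt pathway were not called at −Pi in any organ. CBL4 changed by −0.03 (95% interval −0.85 to 0.79) in Dular roots, 0.02 (−0.80 to 0.84) in PB1 roots, 0.62 (−0.20 to 1.44) in shoots of Dular and 0.05 (−0.77 to 0.87) in shoots of PB1. CIPK24 changed by −0.08 in Dular roots, −0.55 in PB1 roots (−0.90 to −0.19, adjusted p = 0.0339), 0.12 in shoots of Dular and 0.36 in shoots of PB1. CIPK23 was not called in roots. Its first probe set gave 0.48 in Dular and −0.08 in PB1 roots. Its second gave −0.29 and −0.20, each at an adjusted p of 0.05 or less but short of 2-fold. CBL4 was lower in Dular than in PB1 +Pi shoots (−1.57 ± 0.39), with −1.55, −0.76 and −1.13 in Dular, against 0.27, −0.05 and 1.03 in PB1.
In all, 23 of 51 members were called in none of the 12 comparisons of groups (66.9% of all probe sets were called in none), and 3 of them (CIPK30, CPK2 and CPK29) spanned less than 0.2 over all 24 arrays, which is what a probe set without signal over background also shows.

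Genes around the kinases were read from lists. Of 26 measured calmodulins and calmodulin-like proteins (CML), the other class of calcium sensors, 4 were called higher in Dular roots (4.12% of all probe sets were) and none lower; CML17 rose by 2.47 ± 0.20, CML10 by 1.63 ± 0.22, CML11 by 1.54 ± 0.30 and CML15 by 3.04 ± 0.67. In PB1 roots limma called none of the 26. At an adjusted p of 0.05 or less 1 was lower, short of 2-fold (9.82% of all probe sets were lower at any fold). At an unadjusted p under 0.05 there were 5 of the 26, where 31.5% of all probe sets were. The difference between genotypes in roots passed for 6 of 26 (11.7% of all probe sets passed), all with the larger value in Dular (6.45%; median 0.38, beside −0.03 over all probe sets), with CML17 (2.51 ± 0.29) foremost. CML10 was also called higher in Dular shoots and CML5 in PB1 shoots.
Of 10 calcium pumps and exchangers, CAX1a, a vacuolar calcium exchanger, rose by 2.79 ± 0.33 in Dular roots and 1.84 ± 0.33 in Dular shoots. Its difference between genotypes was 2.83 ± 0.46 in roots and 2.90 ± 0.46 in shoots. ACA7, a calcium pump, rose by 2.26 ± 0.59 in PB1 roots. Each was the only one of the 10 called there (higher were 4.12% of all probe sets in Dular roots, 1.16% in Dular shoots and 2.55% in PB1 roots). The difference between genotypes in roots passed for 1 of the 10, CAX1a, and not for ACA7. Neither of 2 calcium channels was called at −Pi by limma, with 2, 1, 0 and 2 at an unadjusted p under 0.05 (Dular roots, PB1 roots, then shoots of Dular and of PB1). Of all probe sets 26.8%, 31.5%, 32.4% and 16.2% were, in the same order. Both channels were lower in PB1 shoots at an adjusted p of 0.05 or less, short of 2-fold (2.93% of all probe sets were lower at any fold).
Among 4 genes for proteins that such kinases act on, AKT1 fell by 1.37 ± 0.26 in Dular roots (adjusted p = 8.81e-04) and rose by 1.01 ± 0.26 in Dular shoots. HAK1, a potassium transporter, rose by 1.12 ± 0.32 and 1.08 ± 0.32 in Dular roots and shoots. Of all probe sets 7.56% were called in Dular roots and 2.34% in Dular shoots. None of the 4 target genes was called in PB1. There 1 was higher in roots at an adjusted p of 0.05 or less but short of 2-fold (5.57% of all probe sets were higher at any fold). The test of the difference between genotypes passed for none of the 4 in roots or shoots. The only probe set of AKT1 is of the kind that can bind related transcripts. Of 14 relatives of the CIPK in the SnRK and CCaMK groups, limma called none at −Pi in the 4 comparisons. At an unadjusted p under 0.05 were 8, 8, 5 and 5 of the 14, in the same order (26.8%, 31.5%, 32.4% and 16.2% of all probe sets). At an adjusted p of 0.05 or less and any fold, 2 of the 14 were higher (8.75% of all probe sets were) and 4 lower (9.54%) in Dular roots. In PB1 roots 2 were higher (5.57%) and 5 lower (9.82%), in Dular shoots 1 was lower (3.81%), and in PB1 shoots none passed.

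The means of green tissue and root marker genes were lower at −Pi in Dular roots, while in PB1 roots the −Pi and +Pi arrays overlapped. The mean of the 4 green tissue genes was −3.68 to −3.40 on Dular −Pi root arrays, against −2.06 to −1.77 on Dular +Pi root arrays, and −1.52 to −1.06 in PB1 −Pi roots, against −2.66 to −1.38 in PB1 +Pi roots. In Dular roots rca (−3.94 ± 0.17) and PORB (−1.50 ± 0.15) were called lower, and in PB1 roots PORA was called higher (2.65 ± 0.80). The mean of 10 root marker genes was 1.93 to 2.30 on Dular −Pi root arrays, against 4.42 to 4.46 on Dular +Pi root arrays. NAS1 (−9.08 ± 0.62), NAS2 (−7.62 ± 0.92) and osysl15 (−7.13 ± 0.75), all of iron uptake, were called lower (3.44% of all probe sets were). Of the 10, 1 was called higher (4.12% of all). The median change of the 10 was only −0.37, so the lower mean rested mainly on these iron genes and not on root markers in general. In PB1 the mean of the 10 was 3.12 to 4.56 in −Pi roots, against 3.26 to 4.88 in +Pi roots. There 2 of the 10 were called lower (2.25% of all probe sets) and 1 higher (2.55%). The part of these shifts in the changes of the kinases was not tested.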

How the data were processed

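The authors hybridised RNA of the 24 samples to Affymetrix rice arrays, and the deposited log2 values are GC-RMA summaries per probe set (GeneSpring, versions not given in the sources used here) from which the probe set's own 24-array median was subtracted, so that no absolute level or signal over background can be read. Each RNA sample pooled tissue of seedlings, and nothing in the labels pairs samples across groups. Of 57381 probe sets, 123 controls were left out. Genes were taken from the platform annotation, in which 22436 probe sets had 1 gene, 95 several and 34727 none, and named through a rice gene table of another build, used for names and neighbours only.

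Group means of all 8 groups were fitted in limma 3.58.1 (R 4.3.3; lmFit and eBayes), with Benjamini-Hochberg adjustment over 57258 probe sets in each comparison. Comparisons of groups were called at an adjusted p of 0.05 and 2-fold, differences between responses at the adjusted p alone. A member with several probe sets was represented by the first, plain probe sets before those that can bind related transcripts. The fit was tested on simulated data. Members were named by rule: those called at −Pi (up to 10 each way), those whose response differed between genotypes (up to 8 each way), the 4 largest called differences each way between genotypes and organs, and members with textbook roles. The members, lists and rules were chosen with earlier results of these data known. Alternatives were other scalings, array weights, unmoderated tests, a replicate block, fits within an organ or genotype, other call rules, a filter on probe sets with a span under 0.2, the last probe set of each member, and leaving out each array.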

Additional observations from a re-analysis of the deposited data

Results flagged for a closer look

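These results drew attention because the change at −Pi differed between genotypes or between organs by a direct limma test. Between genotypes (Dular minus PB1), the root response differed for CBL2 (0.68, adjusted p = 9.38e-03), CBL3 (0.37, 0.0138), CBL5 (1.23, 5.48e-03), CBL6 (0.68, 1.20e-04), CIPK6 (1.33, 0.0252), CIPK29 (1.25, 0.0101) and CPK7 (0.50, 0.0178), with the larger value in Dular. It differed the other way for CIPK1 (−0.61, 0.0101), CIPK7 (−1.06, 4.63e-06, opposite on its second probe set) and CPK5 (−0.53, 0.0379). In shoots CIPK1 (0.57, 0.0386) had the larger value in Dular, and CPK17 (−0.44, 0.0181) and CPK23 (−1.22, 2.04e-03) had the larger value in PB1.

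Between organs (roots minus shoots), the response of Dular differed for CIPK6 (1.98, adjusted p = 1.78e-03), CIPK29 (1.65, 1.40e-03), CIPK1 (−0.58, 0.0170), CIPK7 (−0.95, 1.43e-05) and CIPK17 (−1.22, 7.08e-04). In PB1 it differed for CIPK1 (0.595, 0.0210), CBL3 (−0.49, 4.06e-03), CIPK17 (−1.20, 1.83e-03), CIPK23 (−1.08, 0.0362), CIPK24 (−0.90, 0.0328), CPK7 (−0.91, 4.29e-04), CPK17 (−0.57, 2.11e-03), CPK23 (−0.80, 0.0210) and CPK24 (−0.64, 0.0427). The second probe set of CIPK23 gave −0.10 and did not pass. CIPK1 had the lower root change in Dular and the higher root change in PB1, as both tests for that gene show.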

How the results depend on the processing

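Of 157 called gene values, 104 were kept under every alternative. Counts of called members moved by more than 1.5 times as follows. In PB1 shoots at −Pi against +Pi the count was 0 with median centring or with shoot arrays alone, and 1 with the last probe set of each member. For the genotype difference it was 6 in roots under quantile normalization and 4 with 2-fold asked as well, and in shoots 5 under quantile normalization, 9 with array weights, 0 with shoot arrays alone and 1 with 2-fold. For the organ difference it was 15 with array weights, 9 with Dular arrays alone and 3 with 2-fold in Dular, and 5 with PB1 arrays alone and 2 with 2-fold in PB1. Without the 2-fold threshold the counts at −Pi against +Pi were 16 and 22 in Dular and PB1 roots (18.3% and 15.4% of all probe sets) and 8 and 4 in Dular and PB1 shoots (7.74% and 4.69%). Those of Dular against PB1 were 31 and 32 in −Pi and +Pi roots (28.9% and 62.2%) and 26 and 20 in −Pi and +Pi shoots (24% and 22.4%), and those of roots against shoots were 25 and 31 in Dular (29.5% and 56.3%) and 25 and 25 in PB1 (30.6% and 29.7%), at −Pi and +Pi. For Dular against PB1 in +Pi roots the share of members, 62.7%, was near that of all probe sets, as it was for Dular roots against shoots at +Pi (60.8%). Leaving out 1 array gave counts at −Pi against +Pi of 7 to 9 in Dular roots, 5 to 6 in PB1 roots and 1 to 3 in shoots of either genotype, genotype differences of 8 to 11 in roots and 1 to 8 in shoots, and organ differences of 5 to 6 in Dular and 5 to 10 in PB1. PB1 shoots fell to 1 without any PB1 +Pi shoot array. The members called in PB1 shoots changed even where their count did not. With quantile normalization or array weights the count stayed at 2, of which 1 was called in the main fit. Without PB1 −Pi shoot replicate 1 neither CIPK23 nor CIPK29 was called. The causes were not tested.

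Directions turned for members with opposed probe sets when the last one was used: CIPK7 in Dular roots (2.28), in its genotype difference in roots (1.72), in PB1 roots against shoots (0.57 at −Pi, 0.40 at +Pi) and in its organ difference in Dular (1.97), and CIPK23 at −Pi in PB1 shoots (−0.10), Dular roots (−0.29) and Dular shoots (−0.20) and in roots against shoots (−0.069 in Dular at −Pi, −0.38 and −0.27 in PB1 at −Pi and +Pi). Changes near 0 also turned: CBL4 in PB1 roots (−0.0032 with median centring, −0.025 under quantile normalization, −0.017 with array weights) and Dular roots (0.030 with array weights). Without 1 array CBL4 ranged from −0.21 to 0.22 in Dular roots, from −0.18 to 0.12 in PB1 roots and from −0.18 to 0.44 in PB1 shoots, CIPK23 reached 0.066 in PB1 roots and CIPK24 ranged from −0.039 to 0.21 in Dular shoots.

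Replicate numbers did not pair the samples: deviations of same-numbered arrays correlated at a mean r of 0.0203 (14 of 84 pairs over 0.1). With the replicate block the counts at −Pi against +Pi were 9 and 5 in Dular and PB1 roots and 2 and 3 in Dular and PB1 shoots, and the loss was CIPK21 in PB1 roots (adjusted p = 0.0539). The number of arrays, 3 a group, limits the precision, and without signal over background a flat member cannot be told apart from an undetected one.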
